A study of Mus musculus with 24 samples.

Results

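Signalling through Ras and the kinase ERK switches on genes whose products shut the same signal down. The genes described here are 9 of these ERK feedback inhibitors, namely the dual-specificity phosphatase genes Dusp1, Dusp4, Dusp5 and Dusp6, the Sprouty genes Spry1, Spry2 and Spry4, and the Sprouty-related genes Spred1 and Spred2. They were taken by name, as the probe sets whose gene symbol is exactly one of these, in a choice made with earlier results of these data known. Each has 1 probe set, so that they make up 9 of the 22206 probe sets on the array and 9 of the 21144 genes that were tested.

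Liver RNA of mice lacking N-RAS (N-RAS-/-) and of wild-type mice (N-RAS+/+) was hybridised to 24 Affymetrix arrays, 1 liver per array and 3 livers in each of 8 groups. N-RAS-/- and N-RAS+/+ mice received CCl4, a toxin that injures hepatocytes, or the corn oil it was dissolved in, by 2 injections per week over 4 weeks. In a second experiment, N-RAS-/- and N-RAS+/+ mice had their bile duct ligated (BDL), which dams bile back into the liver, or had a sham operation, and livers were taken on day 28. All mice were described as males included at 8 to 10 weeks of age, and both genotypes were kept on a C57BL/6J background. The null allele was present in every cell of the N-RAS-/- mice in all 4 of their groups, so that a difference in whole liver does not say which cell type it arose in. In whole tissue, a lower signal from fewer cells of a type and one from less RNA per cell cannot be told apart. The labels name separate livers and no shared litter or day, and the spread below is that between these livers.

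ERK is the last kinase of the cascade that starts with Ras proteins and runs through RAF and MEK, and it is active only while phosphorylated. DUSP proteins remove the phosphates: DUSP5 acts on ERK in the nucleus, DUSP6 on ERK in the cytoplasm, and DUSP1 and DUSP4 are nuclear enzymes that also act on the stress kinases JNK and p38. Sprouty and SPRED proteins act higher up, between growth factor receptors and RAF, and SPRED1 does so by carrying neurofibromin, a protein that turns Ras off, to the membrane. In many cell types ERK itself induces the transcripts of these genes, which closes the loop.

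Promoter sequences are given for Dusp5, Dusp1 and Dusp6, because the results below turn on how the Dusp genes responded to CCl4. They are RefSeq sequences of GRCm38.p6, from 250 bases before to 50 bases after the annotated start, and 7 of the 9 genes were searched. Capitals mark a CArG box, the site of serum response factor, or the cAMP response element TGACGTCA and its core TGACG, on either strand. Each sequence is printed 5′ to 3′ on the strand of its gene.
Dusp5, chr19:53528895-53529194, plus strand: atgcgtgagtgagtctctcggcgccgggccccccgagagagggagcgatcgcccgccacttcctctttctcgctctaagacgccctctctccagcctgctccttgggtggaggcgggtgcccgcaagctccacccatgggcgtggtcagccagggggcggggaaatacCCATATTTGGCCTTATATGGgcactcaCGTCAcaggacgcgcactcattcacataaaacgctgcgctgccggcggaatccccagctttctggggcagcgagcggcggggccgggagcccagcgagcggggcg
Dusp1, chr17:26508423-26508722, minus strand: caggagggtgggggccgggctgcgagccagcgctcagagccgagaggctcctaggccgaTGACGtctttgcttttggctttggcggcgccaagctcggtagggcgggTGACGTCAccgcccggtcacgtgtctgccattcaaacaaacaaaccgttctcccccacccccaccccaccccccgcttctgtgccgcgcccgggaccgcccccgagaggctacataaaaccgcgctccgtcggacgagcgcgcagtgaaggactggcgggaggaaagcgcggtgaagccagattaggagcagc
Dusp6, chr10:99262981-99263280, plus strand: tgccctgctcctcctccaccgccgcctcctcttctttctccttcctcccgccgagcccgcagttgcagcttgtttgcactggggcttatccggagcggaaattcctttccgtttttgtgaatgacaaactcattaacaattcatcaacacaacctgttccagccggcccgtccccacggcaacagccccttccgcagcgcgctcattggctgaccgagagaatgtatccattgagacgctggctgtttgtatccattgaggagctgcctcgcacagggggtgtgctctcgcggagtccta
The Dusp5 window held 2 CArG boxes that adjoin each other, 82 and 72 bases before the start, and the minus strand carried TGACG 55 bases before it. A CArG box was found in 1 of the 7 windows and in 1.63% of all 32851 promoter windows of this length. The Dusp1 window held TGACGTCA 143 bases before the start, which contains TGACG on both strands, another TGACG 191 bases before it, and, in lower case, the E box CACGTG 126 bases before it. TGACGTCA was found in 1 of the 7 windows and in 1.79% of all, TGACG in 3 of 7 and in 20.8% of all, and CACGTG in 1 of 7 and in 7.15% of all. The third window with TGACG was that of Spred2. The AP-1 site TGANTCA (7.81% of all) and the Ets site CCGGAAGT (3.89% of all) were in none of the 7, and the Dusp6 window held none of the 6 motifs.

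Signals are log2 values, normalised between arrays by the authors, so that a difference of 1 means a signal that is 2 times as high. Groups were compared with limma over all 21144 genes, and a gene is said to have risen or fallen, or to be called, where its adjusted p was under 0.05. The label check gave Nras log2 signals of 4.55 to 5.55 on the 12 N-RAS-/- arrays and of 5.92 to 8.04 on the 12 N-RAS+/+ arrays, which did not overlap. Hepatocyte markers (Alb, Ttr, Apoa1, Cps1 and Serpina1c) had log2 signals of at least 11.71 on all 24 arrays. On 6 arrays (N01 and N03 of N-RAS+/+ sham, N07, N08 and N09 of N-RAS-/- sham, and N28 of N-RAS-/- oil) the summed linear signal of 4 Y-linked genes lay between 33.9 and 57.6, against 657 to 1794 on the other 18 arrays, although all mice were labelled male. One array, N12 of N-RAS-/- BDL, had skeletal muscle transcripts with a summed linear signal of 3219, against 76.8 to 114.8 on all other arrays.

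After CCl4, Dusp5 and Dusp4 had lower signals in N-RAS-/- livers than in N-RAS+/+ livers, and the remaining 7 genes did not pass the test. On the N-RAS-/- CCl4 arrays, Dusp5 had log2 signals of 8.63, 8.49 and 7.43, against 9.68, 10.11 and 10.39 on the N-RAS+/+ CCl4 arrays. Every N-RAS-/- array lay below every N-RAS+/+ array. The difference was -1.88 ± 0.26 (SE), a signal 3.67-fold lower in N-RAS-/- livers (adjusted p = 0.000346).

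Dusp4 had log2 signals of 8.05, 7.10 and 6.34 on the N-RAS-/- CCl4 arrays, against 8.69, 8.84 and 9.26 on the N-RAS+/+ CCl4 arrays. These groups did not overlap either, and the N-RAS-/- livers were spread more widely, with an SD of 0.86 against 0.29 in N-RAS+/+ livers. The difference was -1.77 ± 0.34 (SE), a signal 3.40-fold lower in N-RAS-/- livers (adjusted p = 0.00358). Array N32 was the lowest of the N-RAS-/- CCl4 group for all 4 Dusp genes and for 7 of the 9 genes, and without it the differences were -1.50 for Dusp5 (adjusted p = 0.000484) and -1.35 for Dusp4 (adjusted p = 0.0136).

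In this comparison 2 of the 9 genes were called lower and 0 higher, where 5.56% of all genes were called lower, 8.72% higher and 14.3% in either direction. At an unadjusted p under 0.05 there were 3, with Spry2 as the third, a share near the 29.2% of all genes at that threshold. The sign was negative for 8 of the 9, and their median difference was -0.54, against -0.04 over all genes. All 9 were measured on the same arrays, so that their signs are not independent. The arrays of the 2 genotypes did not overlap for 4 of the 9 (Dusp4, Dusp5, Dusp6 and Spry4, all lower in N-RAS-/- livers), where 16% of all genes were lower and 16.7% higher without overlap.

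**Figure D1:**
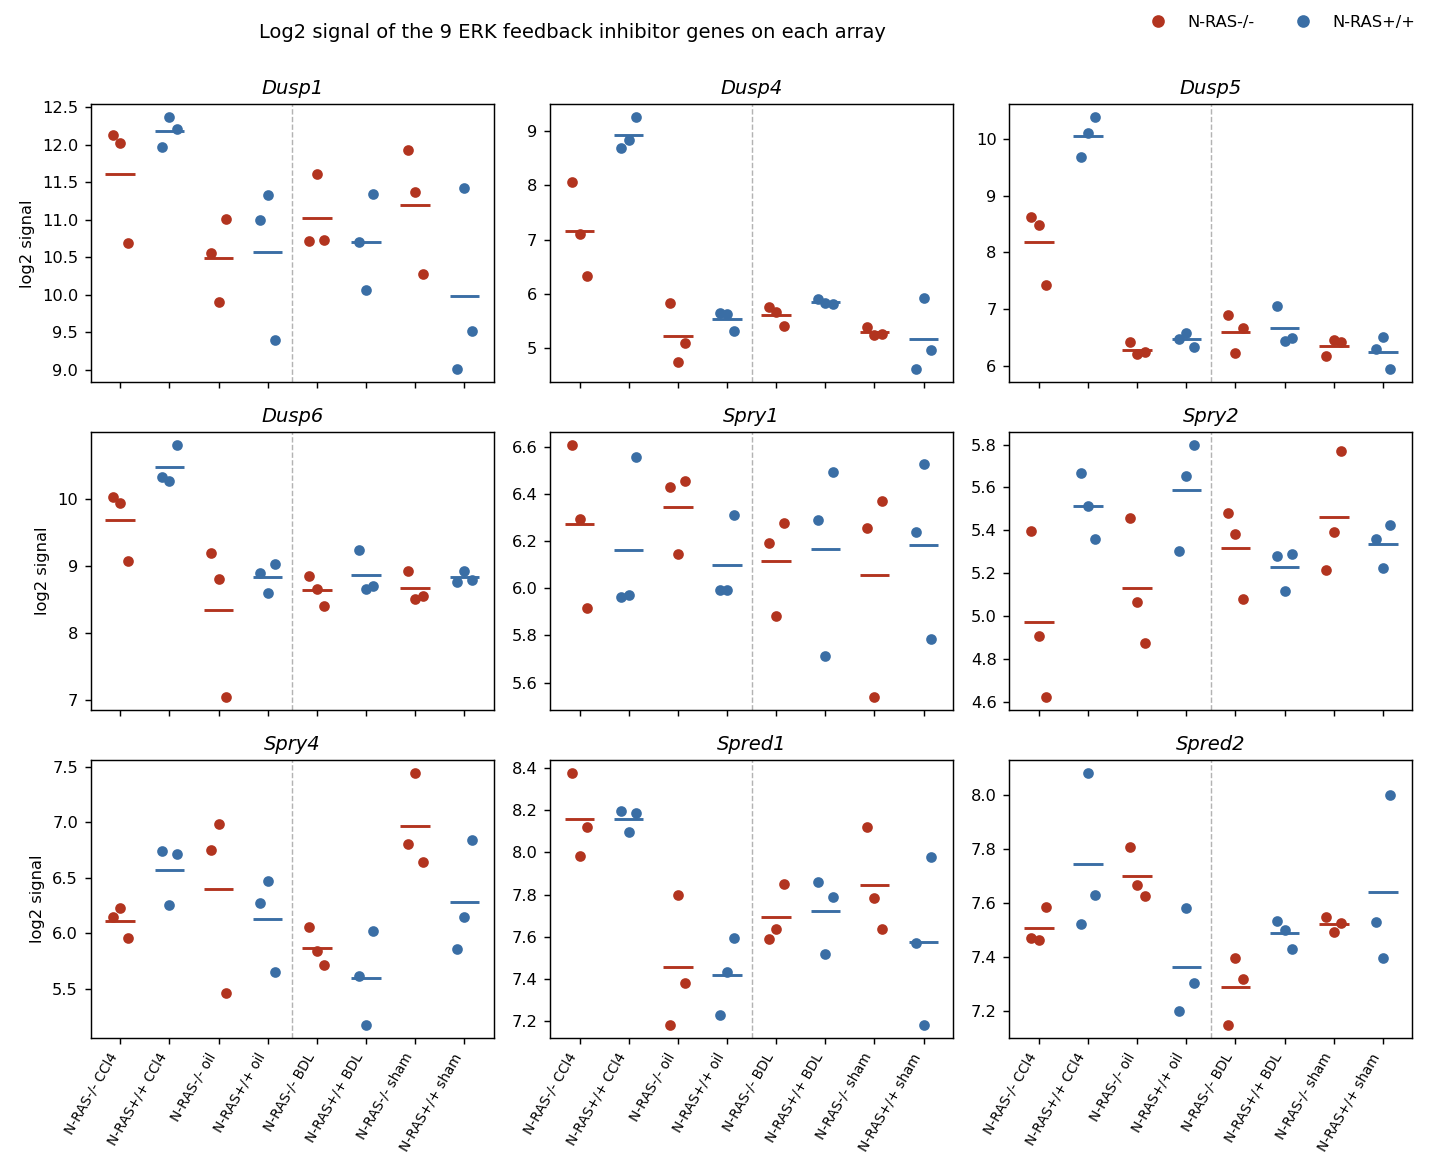
Log2 signal (vertical axes, which differ between panels) of each of the 9 genes on all 24 arrays; each point is 1 liver, lines are means of 3 livers, N-RAS-/- is red and N-RAS+/+ blue, and the dashed line parts the CCl4 from the BDL experiment. Dusp5 and Dusp4 stood above every other group in both CCl4 groups, with N-RAS-/- CCl4 livers between N-RAS+/+ CCl4 livers and the rest.

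Against oil, CCl4 raised 4 of the 9 genes in N-RAS-/- livers (Dusp4, Dusp5, Dusp6 and Spred1) and 5 in N-RAS+/+ livers (the same 4 and Dusp1), and lowered none. Over all genes, 13.6% were called higher after CCl4 in N-RAS-/- livers and 8.08% in N-RAS+/+ livers, and 5.26% were called higher in both, as these 4 genes were. Calls in either direction made up 22.8% of all genes in N-RAS-/- livers and 15.2% in N-RAS+/+ livers, and calls of lower signal 9.19% and 7.16%. At an unadjusted p under 0.05 there were 5 of the 9 in N-RAS-/- livers (33.7% of all genes) and 6 in N-RAS+/+ livers (26.9% of all genes). The CCl4 and oil arrays did not overlap for 4 of the 9 genes in N-RAS-/- livers (Dusp4, Dusp5 and Spred1 higher, Spred2 lower), where 19.5% of all genes were higher and 16.6% lower without overlap. They did not overlap for 5 in N-RAS+/+ livers (the 4 Dusp genes and Spred1, all higher), where these shares were 16.5% and 15.3%. The median response of the 9 genes was 0.70 in N-RAS-/- livers and 0.74 in N-RAS+/+ livers, against -0.02 and 0.01 over all genes in these comparisons. The 2 responses have their own oil controls, and both share an array group with a genotype comparison, so that the counts are not independent of those above.

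Dusp5 had the largest estimated rise of the 9 genes in N-RAS+/+ livers, with an interval that overlapped that of Dusp4. Its oil signals were 6.42, 6.20 and 6.23 in N-RAS-/- livers and 6.48, 6.58 and 6.34 in N-RAS+/+ livers, which overlapped. CCl4 livers of N-RAS-/- mice exceeded these by 1.90 ± 0.26, a 3.73-fold higher signal (adjusted p = 9.20e-05). In N-RAS+/+ mice the rise was 3.60 ± 0.26, a 12.1-fold higher signal (adjusted p = 5.18e-07).

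Dusp4 also rose in both genotypes. Its oil signals were 5.83, 4.75 and 5.10 in N-RAS-/- livers and 5.66, 5.63 and 5.33 in N-RAS+/+ livers, again with overlap. CCl4 added 1.94 ± 0.34 in N-RAS-/- livers, a 3.83-fold higher signal (adjusted p = 0.000817), and 3.39 ± 0.34 in N-RAS+/+ livers, a 10.51-fold higher signal (adjusted p = 1.42e-05). The oil signals were low, and that of 4.75 lay below log2 5, the floor of 32 used among the alternatives. Both rises were called with that floor.

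Dusp6, the cytoplasmic ERK phosphatase, had log2 signals of 10.03, 9.93 and 9.08 in N-RAS-/- CCl4 livers and 10.33, 10.27 and 10.81 in N-RAS+/+ CCl4 livers. In oil livers they were 9.19, 8.81 and 7.04 in N-RAS-/- mice and 8.90, 8.60 and 9.03 in N-RAS+/+ mice. The CCl4 groups of the 2 genotypes did not overlap, and array N29 with 7.04 stood apart from the other oil livers. The rise with CCl4 was 1.34 ± 0.41 in N-RAS-/- livers (adjusted p = 0.0287) and 1.63 ± 0.41 in N-RAS+/+ livers (adjusted p = 0.0139). Without N29 the rise in N-RAS-/- livers was 0.68 and was not called, and it was also lost without N30 or N31 (adjusted p up to 0.109 over these arrays), in a fit of only the 6 arrays compared (adjusted p = 0.0833), with signals floored at 32 (adjusted p = 0.129) and with trended and robust eBayes (adjusted p = 0.108). The rise in N-RAS+/+ livers was lost without N22 or N26 (adjusted p up to 0.0603). Between the genotypes after CCl4, Dusp6 differed by -0.79 (95% interval -1.67 to 0.09, adjusted p = 0.222). Without N29, an oil array that enters only the estimate of the spread, that difference was called at the same size (adjusted p = 0.0411).

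Dusp1, an immediate early gene that glucocorticoids and stress also induce, varied most between livers of 1 group. Its log2 signals were 12.13, 12.02 and 10.70 in N-RAS-/- CCl4 livers and 11.97, 12.37 and 12.21 in N-RAS+/+ CCl4 livers, with overlap. In oil livers they were 10.55, 9.90 and 11.01 in N-RAS-/- mice and 10.99, 11.33 and 9.40 in N-RAS+/+ mice. The CCl4 response was 1.13 ± 0.45 in N-RAS-/- livers (adjusted p = 0.0862) and 1.61 ± 0.45 in N-RAS+/+ livers (adjusted p = 0.0233). The call in N-RAS+/+ livers was lost without N23, N25 or N26 (adjusted p up to 0.105), and without N23 or N32 the response in N-RAS-/- livers was called (adjusted p down to 0.0191). The difference between genotypes after CCl4 was -0.57, with a 95% interval of -1.52 to 0.39.

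**Figure D2:**
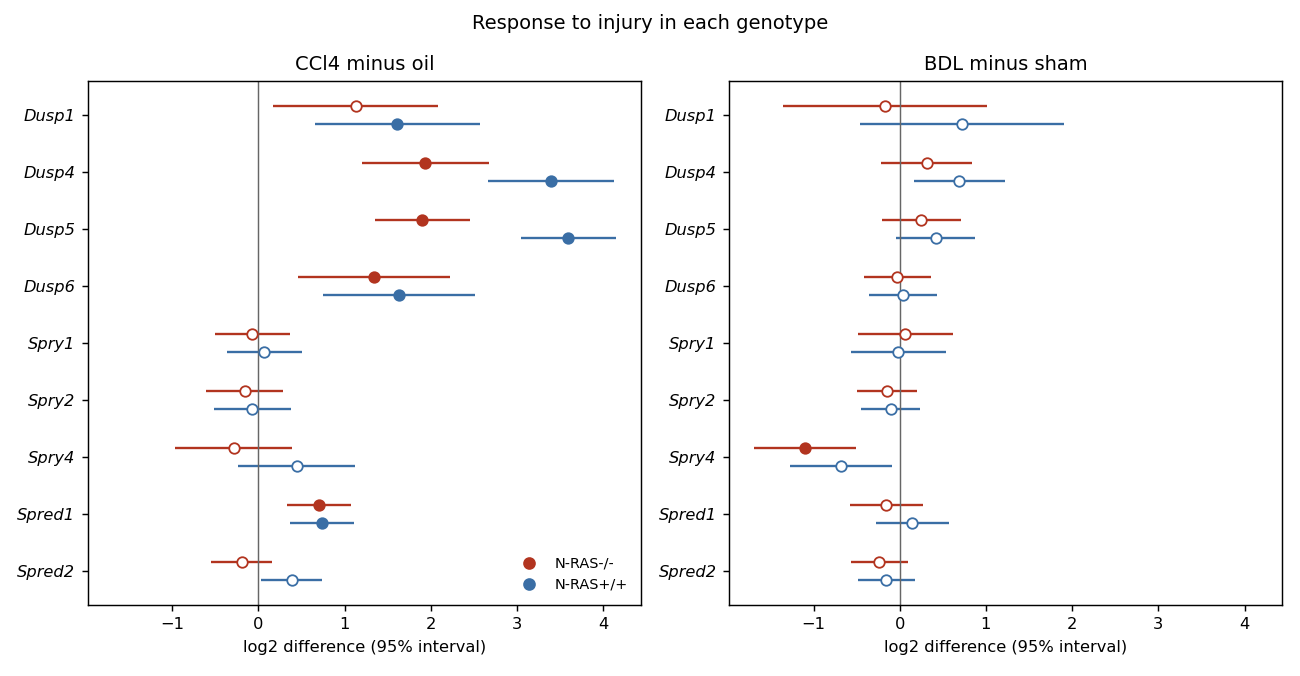
Log2 difference of injured over control livers (horizontal axes, with 95% intervals) for the 9 genes in N-RAS-/- (red, upper) and N-RAS+/+ livers (blue, lower), CCl4 minus oil on the left and BDL minus sham on the right; filled points had an adjusted p under 0.05. The 4 Dusp genes and Spred1 lie right of 0 after CCl4 in both genotypes, and the only filled point after BDL is Spry4 in N-RAS-/- livers at -1.10.

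Of the Sprouty genes, which restrain receptor tyrosine kinase signals to Ras, none was called in any comparison of the CCl4 experiment with all 12 arrays. Spry1 ranged from 5.91 to 6.61 in N-RAS-/- CCl4 livers and from 5.96 to 6.56 in N-RAS+/+ CCl4 livers, and its differences between genotypes were 0.11 after CCl4 (95% interval -0.32 to 0.54) and 0.25 in oil (-0.19 to 0.68). Spry2 had log2 signals of 5.40, 4.91 and 4.62 in N-RAS-/- CCl4 livers and 5.67, 5.51 and 5.36 in N-RAS+/+ CCl4 livers, which overlapped by 1 liver. It differed between genotypes by -0.54 after CCl4 (adjusted p = 0.1002) and by -0.45 in oil (unadjusted p = 0.0474, adjusted p = 0.396). The Spry2 responses to CCl4 were -0.16 in N-RAS-/- livers and -0.07 in N-RAS+/+ livers. Its signals were low, from 4.62 to 5.80 over all 24 arrays, near or below the array medians of 5.55 to 5.70. Without N30 the difference after CCl4 was -0.75 and was called (adjusted p = 0.0358).

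Spry4 had log2 signals of 6.15, 6.23 and 5.95 in N-RAS-/- CCl4 livers and 6.74, 6.26 and 6.71 in N-RAS+/+ CCl4 livers. The groups did not overlap, but the gap between them was smaller than the spread among oil livers, where N-RAS-/- mice had 6.75, 6.98 and 5.46 and N-RAS+/+ mice had 6.27, 6.47 and 5.65. The difference after CCl4 was -0.46 (95% interval -1.14 to 0.21, adjusted p = 0.362). Its CCl4 response was -0.29 in N-RAS-/- livers and 0.44 in N-RAS+/+ livers, and without N29 that in N-RAS-/- livers was -0.76 and was called (adjusted p = 0.0334).

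Spred1 rose by nearly the same amount in both genotypes. Its log2 signals were 8.38, 7.98 and 8.12 in N-RAS-/- CCl4 livers and 8.20, 8.10 and 8.19 in N-RAS+/+ CCl4 livers, against 7.18, 7.80 and 7.38 in N-RAS-/- oil livers and 7.23, 7.43 and 7.59 in N-RAS+/+ oil livers. All CCl4 livers lay above all oil livers. The rise was 0.70 ± 0.17 in N-RAS-/- livers (adjusted p = 0.00813) and 0.74 ± 0.17 in N-RAS+/+ livers (adjusted p = 0.00878). The difference between these rises was -0.04, with a 95% interval of -0.56 to 0.49, and after CCl4 the genotypes differed by between -0.37 and 0.37 at the same confidence.

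Spred2, the other family member, ranged from 7.46 to 7.58 in N-RAS-/- CCl4 livers and from 7.52 to 8.08 in N-RAS+/+ CCl4 livers. Its CCl4 response was -0.20 in N-RAS-/- livers (adjusted p = 0.452) and 0.38 in N-RAS+/+ livers (unadjusted p = 0.0340, adjusted p = 0.143). The responses differed by -0.58 (unadjusted p = 0.0251, adjusted p = 0.216), so that no call was made.

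Whether the genotype changed the response itself was tested as the CCl4 rise in N-RAS-/- livers minus that in N-RAS+/+ livers. Dusp5 was called, with a difference of -1.70 ± 0.37 (adjusted p = 0.0258), and Dusp4 was not, with -1.46 ± 0.49 (unadjusted p = 0.00937, adjusted p = 0.134). Thus 1 of the 9 genes was called, where 1.04% of all genes were called lower, 1.32% higher and 2.36% in either direction, and 3 of the 9 had an unadjusted p under 0.05, as 16.9% of all genes did. The sign was negative for all 9 genes, with a median of -0.48, against -0.03 over all genes. These signs come from the same arrays and are not independent of each other. The Dusp5 call depended on single livers: it was lost without N21, N23, N25, N26, N27 or N29 (adjusted p up to 0.0661, differences of -1.32 to -1.92 over the 12 arrays left out in turn), and the Dusp4 difference was called without N30 (adjusted p = 0.0309). Without N28, the array of low Y-linked signal in this experiment, the Dusp5 difference was -1.74 (adjusted p = 0.0349) and the Dusp4 difference was -1.69 (adjusted p = 0.0850).

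In oil livers 0 of the 9 genes were called between genotypes, where 0.847% of all genes were called (0.534% higher and 0.312% lower). Before adjustment 1 of the 9 had a p under 0.05, Spry2, as 12.5% of all genes did. Dusp5 differed by -0.18 (95% interval -0.73 to 0.37) and Dusp4 by -0.31 (-1.05 to 0.43). The arrays of the genotypes did not overlap for 1 gene, Spred2, which was higher by 0.34 in N-RAS-/- livers (adjusted p = 0.422), where 9.52% of all genes were higher and 8.04% lower without overlap.

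**Figure D3:**
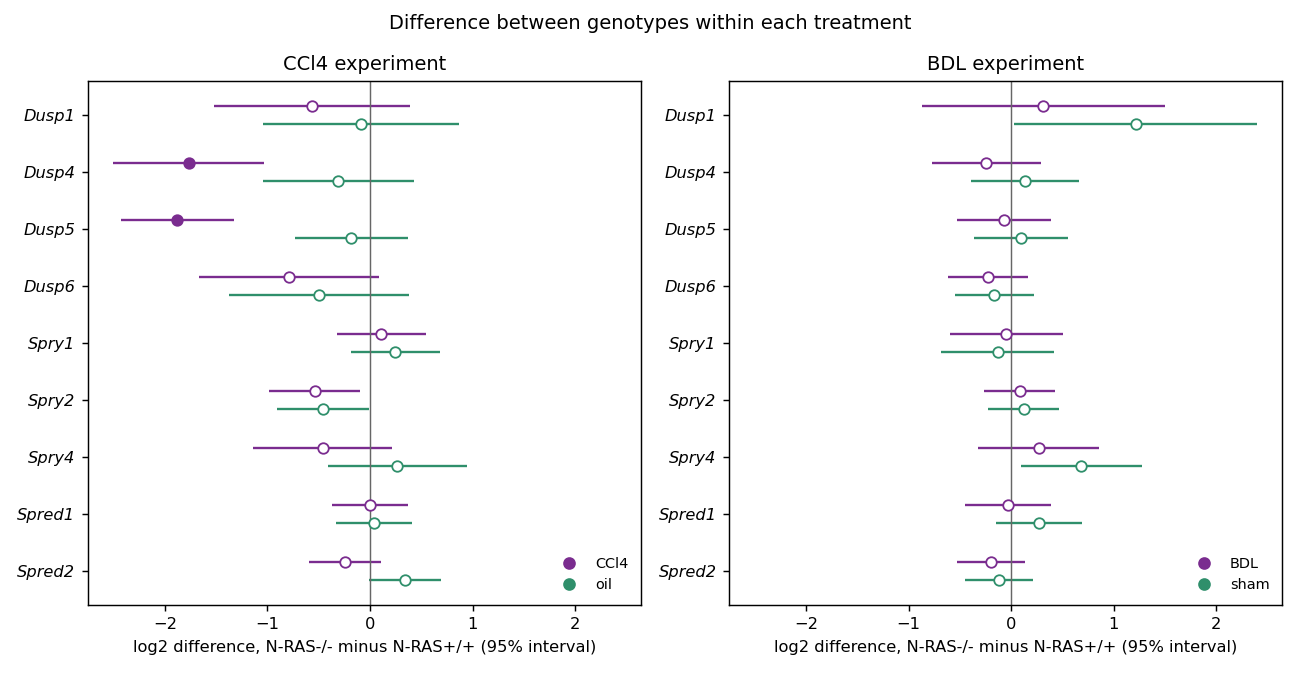
Log2 difference of N-RAS-/- over N-RAS+/+ livers (horizontal axes, with 95% intervals) for the 9 genes, after CCl4 (purple, upper) and in oil (green, lower) on the left, and after BDL (purple, upper) and in sham (green, lower) on the right; filled points had an adjusted p under 0.05. Dusp5 (-1.88) and Dusp4 (-1.77) after CCl4 are the 2 filled points.

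With all 12 arrays of the BDL experiment, none of the 4 Dusp genes was called after BDL in either genotype. All sham arrays but N02 had low Y-linked signal, so that sham operation and low Y-linked signal largely coincided. Dusp5 had log2 signals of 6.89, 6.22 and 6.66 in N-RAS-/- BDL livers and 7.06, 6.44 and 6.49 in N-RAS+/+ BDL livers, against 6.17, 6.45 and 6.41 in N-RAS-/- sham livers and 6.29, 6.51 and 5.93 in N-RAS+/+ sham livers. Its BDL response was 0.25 in N-RAS-/- livers (95% interval -0.21 to 0.71) and 0.42 in N-RAS+/+ livers (-0.04 to 0.88). Both intervals ended below the lower end of the Dusp5 response to CCl4 in N-RAS-/- livers, 1.35, and the experiments were fitted apart, so that this difference was not tested.

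Dusp4 had log2 signals of 5.76, 5.67 and 5.42 in N-RAS-/- BDL livers and 5.91, 5.84 and 5.82 in N-RAS+/+ BDL livers, against 5.39, 5.25 and 5.26 in N-RAS-/- sham livers and 4.61, 5.92 and 4.96 in N-RAS+/+ sham livers. Its BDL response was 0.31 in N-RAS-/- livers (adjusted p = 0.496) and 0.69 in N-RAS+/+ livers (unadjusted p = 0.0141, adjusted p = 0.119). In N-RAS+/+ livers the sham array with high Y-linked signal, N02, was at 5.92 and those with low signal, N01 and N03, at 4.61 and 4.96. The response was 1.07 and called without N02 (adjusted p = 0.000921), and -0.06 without N01 and N03. Dusp6 changed by -0.03 in N-RAS-/- livers and 0.04 in N-RAS+/+ livers, and Dusp1 by -0.17 and 0.73 with intervals more than 2 units wide. In N-RAS+/+ livers the Dusp1 interval after BDL, -0.46 to 1.91, held its CCl4 response of 1.61. In N-RAS+/+ sham livers Dusp1 was likewise at 11.42 on N02, against 9.005 on N01 and 9.51 on N03.

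Spry4 was the 1 gene of the 9 called after BDL, and it fell in N-RAS-/- livers. Its log2 signals were 6.05, 5.84 and 5.71 in N-RAS-/- BDL livers, against 6.81, 7.44 and 6.64 in N-RAS-/- sham livers, without overlap. The difference was -1.10 ± 0.27, a 2.14-fold lower signal after BDL (adjusted p = 0.0182), where 4.05% of all genes were called lower, 7.18% higher and 11.2% in either direction. It was also the 1 gene of the 9 with an unadjusted p under 0.05, as 24.1% of all genes had. All 3 sham arrays of this comparison were among those with low Y-linked signal and no BDL array was. With the Y-linked signal as a term the difference was -0.85 (adjusted p = 0.488), and sham operation and low Y-linked signal cannot be told apart within this genotype. Without N12, the array with muscle transcripts, it was -1.02 (adjusted p = 0.0594), and the call was also lost without N08 or N11 (adjusted p up to 0.0905 over these 3 arrays). Over all genes, 49.2% of the calls were of higher signal with median-centred arrays, against 63.9% with the deposited values.

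Markers of other cell types differed between the same groups. Of 6 cholangiocyte markers 4 were higher after BDL, with summed linear signals of 4044 to 4633 in N-RAS-/- BDL livers and 364 to 597 in N-RAS-/- sham livers. Of 8 stellate cell and myofibroblast markers 6 were higher, with sums of 1559 to 2866 in N-RAS-/- BDL livers and 618 to 704 in N-RAS-/- sham livers, and 3 of 7 lymphocyte markers were lower, with sums of 175 to 199 in N-RAS-/- BDL livers and 274 to 309.9 in N-RAS-/- sham livers. Of 6 macrophage markers 4, of 5 neutrophil markers 3 and of 5 proliferation markers 4 were also higher. Over all genes, 7.18% were called higher and 4.05% lower. None of 5 hepatocyte and 6 endothelial markers was called, and the part of these cell types in the Spry4 difference was not tested.

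In N-RAS+/+ livers Spry4 had log2 signals of 5.61, 5.17 and 6.02 after BDL, against 5.85, 6.15 and 6.84 in sham livers, with overlap, a difference of -0.68 (unadjusted p = 0.0262, adjusted p = 0.176). Here 0 of the 9 genes were called, where 7.21% of all genes were (4.51% higher and 2.7% lower), and 2 of the 9 had an unadjusted p under 0.05, Spry4 and Dusp4, a share near the 19.7% of all genes. The median BDL response of the 9 genes was -0.14 in N-RAS-/- livers and 0.04 in N-RAS+/+ livers, against -0.03 and -0.01 over all genes. In N-RAS-/- livers Dusp4 (0.31), Spred2 (-0.23) and Spry4 did not overlap between BDL and sham, where 15.6% of all genes were higher and 15% lower without overlap. In N-RAS+/+ livers 0 of the 9 were without overlap, where these shares were 12% and 10.8%. None of the 9 was called higher after BDL in both genotypes, as 3.31% of all genes were.

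Between genotypes, 0 of the 9 genes were called after BDL (0.705% of all genes, with 0.525% higher and 0.18% lower, and 0 of the 9 at an unadjusted p under 0.05, against 12% of all genes). In sham 0 were called (0.426% of all genes, with 0.246% higher and 0.18% lower). After BDL the differences ran from -0.24 (Dusp4) to 0.31 (Dusp1), and those of Dusp4 and Spred2, -0.20, were without overlap between the genotypes, where 8.29% of all genes were lower and 8.32% higher without overlap. In sham livers 2 of the 9 had an unadjusted p under 0.05 (7.88% of all genes), both higher in N-RAS-/- livers, and 0 were without overlap, where 7.36% of all genes were higher and 6.92% lower. Dusp1 had log2 signals of 11.93, 11.37 and 10.28 in N-RAS-/- sham livers, against 9.005, 11.42 and 9.51 in N-RAS+/+ sham livers, a difference of 1.21 (adjusted p = 0.626) with overlap. The N-RAS+/+ array at 11.42 was N02, with high Y-linked signal, and the other sham arrays of both genotypes had low Y-linked signal. Spry4 differed by 0.68 (adjusted p = 0.544). The BDL response differed between genotypes for 0 of the 9 genes and for 0% of all genes, with 0 of the 9 at an unadjusted p under 0.05, against 6.69% of all genes. For Dusp5 that difference was -0.17 (95% interval -0.81 to 0.48).

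Over all 8 groups the mean log2 signal of Dusp5 was 8.18 ± 0.65 in N-RAS-/- CCl4 livers and 10.06 ± 0.36 in N-RAS+/+ CCl4 livers (SD, n = 3 each), and the other 6 groups lay between 6.24 and 6.66. Dusp4 averaged 7.16 ± 0.86 in N-RAS-/- CCl4 livers and 8.93 ± 0.29 in N-RAS+/+ CCl4 livers (SD, n = 3 each), with the other 6 groups between 5.16 and 5.86. The 8 group means of Spry1 lay between 6.05 and 6.34 and those of Spred2 between 7.29 and 7.74. The widest group SD of the 9 genes was that of Dusp1 in N-RAS+/+ sham livers, 1.27.

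Dusp4 and Dusp5 varied together more than any other pair of the 9 (Pearson's r = 0.973 over the 24 arrays, and 0.650 after removal of the group means). Among the 36 pairs the median r was 0.223 and 3 were above 0.8, those of Dusp4, Dusp5 and Dusp6 with each other. As a description over the same 24 arrays, which share their groups, the gene most like Dusp5 after Dusp4 was Fosl1, an ERK-induced AP-1 subunit (r = 0.970, 0.423 without group means), and that most like Dusp4 after Dusp5 was Cxcl2, a chemokine that attracts neutrophils (r = 0.956, 0.502 without group means). The genes most like Dusp6 were Lonrf3 (r = 0.899) and Wfs1 (r = 0.880), and those most like Dusp1 were Csrnp1 (r = 0.851) and Trp53inp1 (r = 0.825). For Dusp1 and Csrnp1, r was also 0.851 without the group means, so that these 2 varied together between livers of 1 group. The closest genes were Oxgr1 (r = 0.666) and Adam19 (r = 0.662) for Spry1, Aurkaip1 (r = 0.738) and Hikeshi (r = 0.716) for Spry2, and Syde2 (r = 0.762) and Enpep (r = 0.753) for Spry4. They were Morc4 (r = 0.835) and Cers6 (r = 0.822) for Spred1, and 4933400A11Rik (r = 0.749) and Ccdc157 (r = 0.691) for Spred2.

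Other genes of the pathway were described in 6 lists. Over all genes, 5.56% were called lower and 8.72% higher in N-RAS-/- livers after CCl4. Against oil, CCl4 raised 13.6% of all genes in N-RAS-/- livers and 8.08% in N-RAS+/+ livers. The CCl4 response differed between genotypes for 2.36% of all genes. Of 6 other MAP kinase phosphatases, 2 were lower and 0 higher in N-RAS-/- livers after CCl4, with a median of -0.65. These were Dusp8, which acts on JNK and p38 (-1.04, adjusted p = 0.00883), and Dusp7, an ERK phosphatase close to DUSP6 (-0.73, adjusted p = 0.0122). CCl4 raised 2 of the 6 in N-RAS-/- livers and 4 in N-RAS+/+ livers, and Dusp8 was the 1 of them whose response differed between genotypes (-1.54, adjusted p = 0.0260). Dusp10, a phosphatase of JNK and p38, rose by 2.37 in N-RAS-/- livers (adjusted p = 9.14e-05). Its rise in N-RAS+/+ livers was 2.90 (adjusted p = 3.15e-05). BDL raised 2 of the 6 in N-RAS-/- livers and 1 in N-RAS+/+ livers, where 7.18% and 4.51% of all genes were called higher. Dusp10 had a median of 8.24 after BDL and 6.24 in sham in N-RAS-/- livers. In N-RAS+/+ livers these medians were 8.34 and 7.02.

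Of 22 other transcripts that ERK is known to induce, 21 were measured, and after CCl4 8 were lower and 1 higher in N-RAS-/- livers, with a median of -0.74. Those with the smallest adjusted p were Fosl1 (-1.34, adjusted p = 0.000897), the growth factor-induced gene Phlda1 (-1.42, adjusted p = 0.00487), the Ets factor Etv4 (-0.77, adjusted p = 0.00501), the stress-induced factor Atf3 (-1.25, adjusted p = 0.00612) and the AP-1 subunit Junb (-1.32, adjusted p = 0.0108). The 1 gene that was higher was the membrane protein gene Emp1, by 1.79 (adjusted p = 0.0127). CCl4 raised 12 and lowered 1 of the 21 in N-RAS-/- livers and raised 16 and lowered 0 in N-RAS+/+ livers. In N-RAS-/- livers Phlda1 fell after CCl4, with a response of -1.73 (adjusted p = 0.000508). It was the 1 gene of this list whose CCl4 response differed between genotypes (-1.75, adjusted p = 0.0384). BDL raised 8 and lowered 1 in N-RAS-/- livers and likewise 8 and 1 in N-RAS+/+ livers, where 7.18% and 4.51% of all genes were called higher in these comparisons.

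A further list held 15 genes under the heading of negative regulators of Ras and ERK signalling, chosen by name. Not all of them are inhibitors of ERK, and Ier3 is among those that are not. In N-RAS-/- livers after CCl4, 3 of the 15 were lower and 1 higher, with a median of -0.11. The early response gene Ier3 was lower, with a difference of -2.40 (adjusted p = 1.77e-05), and its response to CCl4 also differed between genotypes (-2.30, adjusted p = 0.00265). Socs3, which blocks cytokine receptor signals, differed by -1.22 (adjusted p = 0.00538), the receptor inhibitor gene Lrig1 by -0.69 (adjusted p = 0.0191), and Nf1, which encodes neurofibromin, by 0.76 (adjusted p = 0.0138). Spry3 and Spred3, the family members outside the 9, differed by 0.17 and -0.24 and were not called.

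Of 19 genes of the cascade itself, 3 were higher and 1 lower in N-RAS-/- livers after CCl4, with a median of 0.09. Over all genes 8.72% were called higher and 5.56% lower, shares that also stand beside the receptor and stress target counts below. The lower one was Nras, the gene deleted in these mice (-2.27, adjusted p = 2.84e-05). Those that were higher were the exchange factor gene Sos1 (1.03, adjusted p = 0.000776), Hras (0.66, adjusted p = 0.0303) and Braf (0.51, adjusted p = 0.0365). Of 14 measured receptor genes of a list of 15, the platelet-derived growth factor receptor gene Pdgfrb (0.92, adjusted p = 0.00763) and the endothelial receptor gene Kdr (0.75, adjusted p = 0.0186) were higher, and the hepatocyte growth factor receptor gene Met (-0.80, adjusted p = 0.0111) was lower. Of 11 measured glucocorticoid and stress targets of a list of 12, Fkbp5 was higher (1.68, adjusted p = 0.00700) and 4 were lower, namely Hspa1a (-0.83), Btg2 (-1.57), Zfp36 (-1.09) and Nr4a1 (-1.75), while the median was 0.24. After BDL, in oil and in sham, 0 genes of these 6 lists were called between genotypes other than Nras and, in oil, Hspa1a (-0.96, adjusted p = 0.00767).

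**Figure D4:**
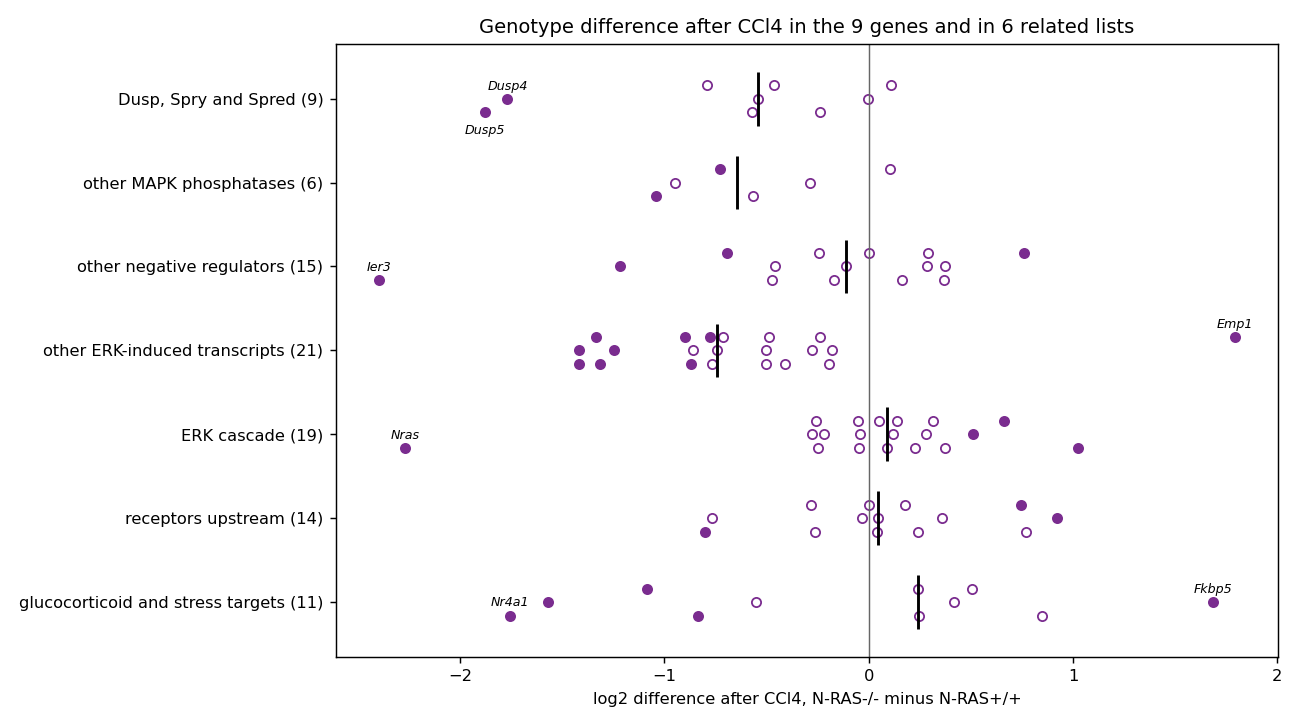
Log2 difference of N-RAS-/- over N-RAS+/+ livers after CCl4 (horizontal axis) for the 9 genes and the 6 lists (rows, with the number of genes measured); each point is a gene, filled where its adjusted p was under 0.05, and black lines are medians. Names stand beside filled points more than 1.6 from 0, and the medians run from -0.74 in other ERK-induced transcripts to 0.24 in glucocorticoid and stress targets.

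Markers of cell types also differed between genotypes after CCl4, where the Dusp difference was found. In this comparison 8.72% of all genes were called higher and 5.56% lower. Of 6 endothelial markers 3 were higher in N-RAS-/- livers (Eng, Kdr and Stab2), and their summed linear signal ran from 3105 to 4171 in N-RAS-/- CCl4 livers and from 1780 to 2935 in N-RAS+/+ CCl4 livers. Of 8 stellate cell and myofibroblast markers 2 were higher (Acta2 and Pdgfrb), with sums of 1117 to 1639 in N-RAS-/- livers and 754 to 1125 in N-RAS+/+ livers. Of 6 cholangiocyte markers 1 was lower (Sox9), with sums of 831 to 1274 in N-RAS-/- livers and 1562 to 2388 in N-RAS+/+ livers. Their median difference was -0.35. Without a call, Spp1 (-0.58), Cftr (-0.36) and Epcam (-0.34) were lower, and Krt7 (0.19) and Krt19 (0.11) were higher. Of 5 neutrophil markers 1 was lower (S100a9), with sums of 245 to 390 in N-RAS-/- livers and 356 to 536 in N-RAS+/+ livers. Their median difference was -0.13. Without a call, S100a8 (-0.47) and Mpo (-0.13) were lower, and Ly6g (0.48) and Retnlg (0.38) were higher. Of 6 macrophage markers 1 (Cd68) and of 7 lymphocyte markers 1 (Cd3e) were higher, and 0 of 5 hepatocyte markers were called, with sums of 35155 to 36552 in N-RAS-/- livers and 34689 to 36705 in N-RAS+/+ livers. The median was -0.11 for the macrophage and 0.13 for the lymphocyte markers. Without a call, the macrophage markers Lyz2 (-0.67), Adgre1 (-0.15), Gpnmb (-0.13) and Csf1r (-0.08) were lower, and Clec4f (0.27) was higher. Against oil, CCl4 raised 7 of the 8 stellate cell markers in N-RAS-/- livers and 3 in N-RAS+/+ livers, where 13.6% and 8.08% of all genes were called higher. The response differed between genotypes for 0 of these 8 markers. CCl4 raised 2 macrophage, 2 neutrophil, 1 cholangiocyte, 1 endothelial and 1 lymphocyte marker in N-RAS-/- livers. In N-RAS+/+ livers these counts were 3, 3, 2, 0 and 0. Of the same lists, CCl4 lowered 1 macrophage and 1 lymphocyte marker in N-RAS-/- livers, and 1 endothelial marker in N-RAS+/+ livers. Over all genes, 9.19% were called lower in N-RAS-/- livers and 7.16% in N-RAS+/+ livers. No marker was listed at 0, and the part of these cell types in the Dusp4 and Dusp5 differences and in the CCl4 responses was not tested.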

How the data were processed

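Each of 24 livers gave 1 Affymetrix array (8 groups of 3, 12 arrays per experiment). The log2 signals per probe set were used as deposited. The authors had normalised them between arrays by a method that is not given in the sources used here (array medians 5.55 to 5.70, correlations of pairs of arrays 0.940 to 0.992). MAS5 stands in the submitters' processing notes without a role, and biotin is given as the label although the labelling protocol describes Cy3. The intensity columns of the deposited workbook are the authors' group means of 2 raised to these values (largest relative difference 1.1e-15). The workbook was used for its gene symbols, and its ratio and p-value columns, the authors' own comparisons, were not used. Unused columns of per-array values numbered 0, and no array was a copy of another.

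Of 22206 probe sets, 21367 had 1 symbol, 836 had several and 3 had none. Only the first were kept, 882 symbols were updated with RefSeq names, and for 143 genes with more than 1 probe set that with the highest mean was used. Each experiment's 12 arrays went into 1 fit (limma 3.58.1, R 4.3.3, files read by the package data.table, version 1.17.8), with 1 coefficient per group and default eBayes. p values were two-sided and adjusted by Benjamini and Hochberg over 21144 genes, with a threshold of 0.05. With 3 against 3 arrays an exact permutation test of 1 gene cannot go below 0.1, so none was used. Precision was limited by the number of arrays. Summaries and figures used python 3.11.15, pandas 2.3.3, numpy 2.4.6 and matplotlib 3.10.9.

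The 9 genes, the pathway lists, the marker lists and the promoter motifs were chosen with earlier results of these data known. Genes named are the 9, up to 5 genes of a pathway list with the smallest adjusted p in a comparison, the 2 genes with the highest correlation to each of the 9, Nras, and markers that were called. Emp1, Spry3 and Spred3 were chosen after their values were seen. RefSeq promoter windows were searched for 7 of the 9 genes. No window was available here for Dusp4, and that of Spry4 was not used. Alternatives changed the arrays fitted (the 6 compared, or all 24), the scaling (quantile normalisation, median centring), low signals (genes above the 40th percentile of the means, or signals floored at 32 before log2), how probe sets were merged (their mean), eBayes (trended and robust), the weighting of arrays, and the test (the t-test of the methods). Others added the Y-linked signal as a term or left out arrays.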

Additional observations from a re-analysis of the deposited data

Results flagged for a closer look

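The response of Dusp5 to CCl4 differed between the genotypes by a test of that difference: the rise in N-RAS-/- livers minus that in N-RAS+/+ livers was -1.70 ± 0.37 on the log2 scale (adjusted p = 0.0258, limma), with rises of 1.90 in N-RAS-/- livers and 3.60 in N-RAS+/+ livers. Among 9 genes and 2 interactions it was the only such difference called. It was no longer called when 1 of 6 arrays was left out, with adjusted p up to 0.0661 and the same sign each time. Groups of 3 livers are too small for a test of single outlying arrays.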

How the results depend on the processing

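The lower Dusp5 and Dusp4 signals of N-RAS-/- livers after CCl4 were called under every alternative but the methods' t-test with Benjamini-Hochberg adjustment, where 0 of the 9 genes were called, adjusted p being 0.112 and 0.164. That test also gave 0 for the CCl4 response in N-RAS-/- livers, 2 for that in N-RAS+/+ livers and 0 for the BDL response in N-RAS-/- livers, where it gave 3 unadjusted. For the CCl4 response in N-RAS-/- livers a fit of only the 6 arrays, the floor, and trended and robust eBayes each gave 3 genes, without Dusp6, and array weights gave 5, with Dusp1 added (adjusted p = 0.0472). The unadjusted t-test also left out Dusp6. A floor of 32 gave 3 genes for the CCl4 response in N-RAS+/+ livers, 0 for the BDL response in N-RAS-/- livers and 0 for the CCl4 interaction. Trended and robust eBayes gave 3 for the CCl4 response in N-RAS+/+ livers, and array weights gave 1 for the BDL response in N-RAS+/+ livers. For the BDL response in N-RAS-/- livers the Y-linked term gave 0, and so did leaving out N12. Leaving out 1 array in turn gave 2 to 3 genes between genotypes after CCl4, 3 to 5 for the CCl4 response in N-RAS-/- livers, 3 to 5 in N-RAS+/+ livers (3 without N26), 0 to 1 for the BDL response in N-RAS-/- livers, 0 to 1 in N-RAS+/+ livers (1 without N02) and 0 to 2 for the CCl4 interaction (2 without N30), and 0 in the other 4 comparisons. Some differences changed sign, and none of them was called with all arrays: the Dusp4 BDL response in N-RAS+/+ livers was -0.064 without the low Y-linked arrays and -0.088 with the Y-linked term, that in N-RAS-/- livers was -0.72 with the term, the Spred2 BDL response in N-RAS-/- livers was 0.14 with the term, and the Spry4 CCl4 response in N-RAS-/- livers was 0.0033 without the low Y-linked array N28 and ran from -0.76 to 0.0033 over all arrays left out in turn. The cause of these shifts was not tested. Of the 90 pairs of gene and comparison, 68 were called in no setting, and 41 of those changed sign in at least 1.

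Counts over all genes moved by more than 1.5 times for several of the backgrounds. The CCl4 interaction had 499 calls, against 835 with all 24 arrays, 753 with the filter and 301 with the floor. Genotype in oil had 179, against 64 with only the 6 arrays compared and 76 with the floor. Genotype after BDL had 149, against 56 with only the 6 arrays compared (and 56 without the low Y-linked arrays), 266 with all 24 arrays and 79 with the floor, and genotype in sham had 90, against 48 with the floor. The BDL response had 2376 calls in N-RAS-/- livers, against 426 with the Y-linked term, and 1524 in N-RAS+/+ livers, against 560 with it and 306 without the low Y-linked arrays. With the methods' t-test, adjusted and unadjusted, the counts were 384 and 4870 for genotype after CCl4 (3020), 0 and 2174 in oil, 1 and 1919 after BDL, 0 and 1632 in sham, 462 and 4945 for the CCl4 response in N-RAS+/+ livers (3223), 862 and 4674 for the BDL response in N-RAS-/- livers, and 16 and 3108 in N-RAS+/+ livers, with 1958 adjusted for the CCl4 response in N-RAS-/- livers (4828). The BDL interaction had 0 calls, against 1 with all 24 arrays, 1 with the floor and 3 with the Y-linked term.

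No paired analysis was possible because the groups share no replicate numbers. The fit without the low Y-linked arrays was not run for genotype in sham, the BDL response in N-RAS-/- livers and the BDL interaction, where it leaves no N-RAS-/- sham array. With 3 arrays per group, Dusp1 was bounded least: its 95% interval was -1.83 to 0.87 for the CCl4 interaction and -2.58 to 0.77 for the BDL interaction.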
